A study of Mus musculus with 11 samples.

Results

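The data show how differently one Morc2a genotype shifted gene expression in spinal cord and in cultured fibroblasts. The mice were C57BL/6, either wild-type or heterozygous for the Morc2a p.S87L variant, and RNA was sequenced from spinal cord and from MEF, the labels' short name for fetal fibroblasts of the mouse. There were 3 wild-type and 3 S87L cord libraries, 3 wild-type MEF libraries and 2 S87L MEF libraries.  The labels used here give no age, no level of the cord and no number of fetuses behind the cultures. For each gene the genotype effect in a tissue is the mean of log2(FPKM + 0.5) in the S87L libraries minus that in the wild-type libraries. FPKM, fragments scaled to gene length and to library depth, is the unit of the deposited values. The quantity of interest is the effect in MEF minus the effect in cord, called the interaction. It was computed for the 12389 of 55487 gene identifiers with a mean FPKM of at least 0.5 over the cord libraries and over the MEF libraries. A further 3259 genes reached that level in cord alone and 1384 in MEF alone. They have no interaction here. The limit just kept Gm8712 at a lower tissue mean of 0.5003 FPKM and just left out Klrg2 at 0.4992 and Gfap at 0.4991.

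MORC2 proteins are nuclear ATPases that act on chromatin. They work with the HUSH complex, which recruits histone methylation to silence retroelements and certain gene clusters, zinc finger genes among them. Dominant variants in the ATPase part of human MORC2 cause an inherited axonal neuropathy and, in severe cases, a developmental disorder with early weakness. The spinal cord holds the motor neurons and glia that such a disease affects, while fibroblasts are matrix-making cells that divide in culture.

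The cord libraries held 15.35 to 23.53 M recovered reads and the MEF libraries 12.08 to 15.05 M. Within a group, the median standard deviation of a gene was 0.0577 to 0.0739 on the log2 scale. No 2 libraries of a group agreed within counting noise, and each was counted as 1 replicate. Nothing in the labels says whether they came from separate animals or cultures, so the p-values below measure only library-to-library spread, part or all of which may be technical. All 11 libraries expressed Xist, with the Y-linked genes at or near 0. Of the tissues' defining markers, the neuron markers summed to 2961 to 3097 FPKM in cord and 78.4 to 88.6 in MEF, and the meningeal and fibroblast markers to 350.6 to 496 in cord and 3366 to 3913 in MEF. Whole tissue and whole cultures were measured, so fewer cells of a type and less RNA per cell cannot be told apart in any result below.

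Across the 12389 genes the median effect was -0.01 in cord and -0.01 in MEF, and the median interaction was 0.01. In limma with Benjamini-Hochberg adjustment over all genes tested, 1632 genes (13.2%) had an interaction with an adjusted p under 0.05, which is what "called" means throughout. The interaction was above 0 in 747 (6.03%) and below 0 in 885 (7.14%). That split depended on scaling: it was 618 above and 1066 below under median ratio scaling, 1044 and 957 in voom on recovered reads, and 1030 and 1032 after removal of GC content and length trends. The genotype effect was called for 1774 genes in cord (14.3%), of which 767 were higher (6.19%) and 1007 lower (8.13%) in S87L. In MEF 2094 were called (16.9%), 960 higher (7.75%) and 1134 lower (9.15%). These shares over all genes are the background for the counts of every list below. The 2 effects had a Pearson correlation of 0.10 over 12389 genes that share their 11 libraries. Most effects were small, with a median absolute value of 0.09 in cord and 0.11 in MEF. The correlation therefore says little of the genes that responded. Without S87L_MEF replicate 1 the MEF calls fell to 1131, and without S87L_SC replicate 2 the cord calls fell to 1075.

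Each gene was then placed by its calls. A total of 480 genes (3.87%) were called in both tissues. Of these, 303 (2.45%) moved the same way, 113 higher (0.912%) and 190 lower (1.53%). The other 177 (1.43%) moved in opposite ways with the interaction called as well. Among them 118 (0.952%) were higher in S87L cord and lower in S87L MEF, and 59 (0.476%) were lower in cord and higher in MEF. A response was placed in cord alone when the cord effect and the interaction were called and the 95% interval of the MEF effect lay within 0.26 of 0 on the log2 scale, a 1.2-fold change. This held for 358 genes (2.89%), 185 higher (1.49%) and 173 lower (1.4%). The mirror rule gave 529 genes (4.27%) that responded in MEF alone, 242 higher (1.95%) and 287 lower (2.32%). Another 180 cord genes (1.45%) and 204 MEF genes (1.65%, of which 120 or 0.969% lower) had a called effect and interaction but too wide an interval in the other tissue. Leaving out 1 library moved these counts: the opposite genes higher in cord numbered 72 without S87L_SC replicate 2, those lower in cord 30, and the cord-alone genes 205 without S87L_MEF replicate 1.

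**Figure D1:**
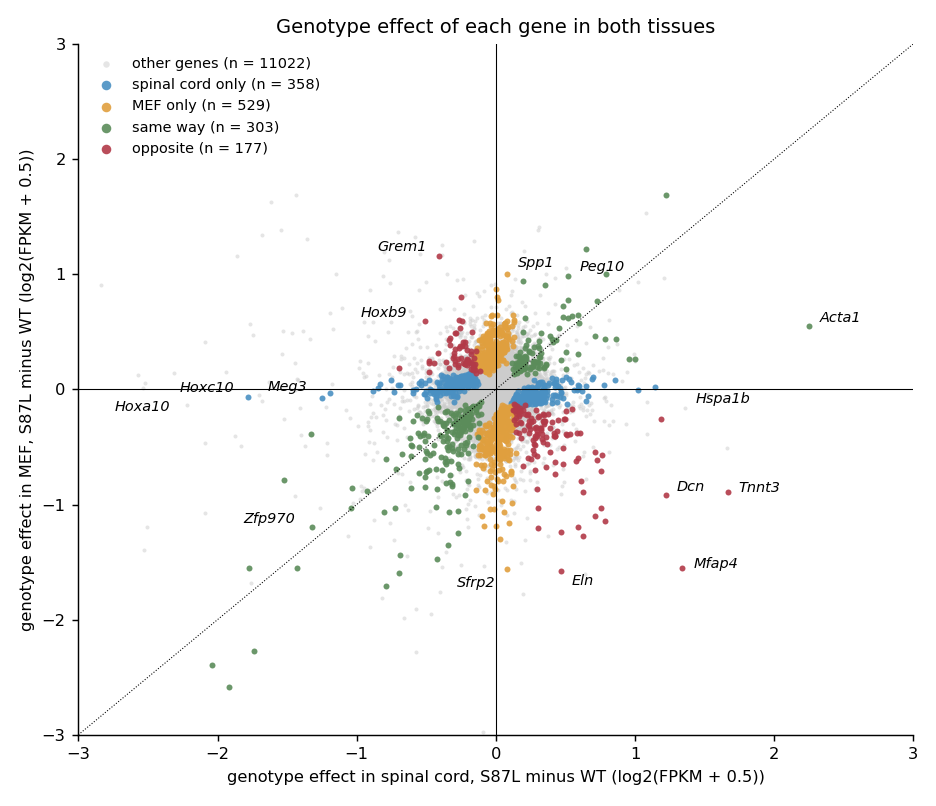
Genotype effect of each of 12389 genes in spinal cord (horizontal axis) and in MEF (vertical axis), S87L minus wild-type on the log2(FPKM + 0.5) scale, with genes coloured by response; the dotted line marks equal effects. The 177 opposite genes fill the upper left and lower right, with Mfap4 at 1.34 in cord and -1.55 in MEF.

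The wild-type level of the genes is given as a description, with no test. Over all genes tested, 51.8% had a higher wild-type level in MEF than in cord. The share was 67.8% among opposite genes lower in cord and 57.6% among those higher in cord. It was 49.5% among genes lower in both tissues and 47.8% among those higher in both. Among genes of cord alone it was 69.4% for the lower and 55.1% for the higher, and among genes of MEF alone 35.5% and 43.4%. With a wide interval in the other tissue, it was 51.9% for genes lower in cord, 69.7% for genes higher in cord, 50.0% for genes lower in MEF and 44.0% for genes higher in MEF. Protein-coding genes made up 89% of all genes tested, and all 59 opposite genes lower in cord and all 185 genes higher in cord alone. Long noncoding genes were 3.5% and small RNA genes 1.53% of all genes tested. Among the 104 genes lower in cord with a wide interval in MEF they were 19.2% and 8.65%.

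Among the opposite genes were several of the extracellular matrix. Small leucine-rich proteoglycans are secreted proteins that coat collagen fibrils and set their spacing. Of the 8 tested, 7 were higher in S87L cord and 4 were lower in S87L MEF, and the interaction was below 0 in 7. The median effect was 0.53 in cord and -0.51 in MEF, against -0.01 and -0.01 over all genes. Dcn encodes decorin, the best known of the family (chr10:97479609-97518143). It stood at 4.90, 4.65 and 4.47 FPKM in wild-type cord and at 11.1, 11.6 and 12 in S87L cord. In MEF it stood at 17.5, 18.0 and 17.2 for wild-type against 9.55 and 8.62 for S87L. The groups did not overlap in either tissue, and the S87L cord libraries lay above the S87L MEF libraries although the wild-type order was the reverse. The Dcn effect was 1.22 ± 0.05 (SE) in cord and -0.92 ± 0.06 in MEF, with an interaction of -2.14 ± 0.08 (limma adjusted p = 8.79e-08). Prelp, which anchors basement membranes to collagen, rose from 8.83 to 8.94 FPKM in wild-type cord to 12 to 13.1 in S87L. In MEF Prelp fell from 23.9 to 24 in wild-type to 9.56 and 10.1. Lumican (Lum) changed by 0.59 in cord and -1.20 in MEF, and fibromodulin (Fmod) by 0.43 and -0.74. Osteoglycin (Ogn), another member, rose in cord from 5.56 to 5.96 FPKM to 12.9 to 13.7. Its MEF values were 91.6 to 96.8 in wild-type and 89.0 and 102 in S87L, an effect of 0.02 ± 0.06.

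Elastic fibres are the stretchable part of the matrix, built of elastin on a scaffold of microfibrils. Of 17 tested genes, 7 rose and 2 fell in S87L cord, while 3 rose and 8 fell in S87L MEF. Opposite responses were called for 5, all higher in cord: Mfap4, Eln, Mfap5, Fbln1 and Emilin2. Mfap4, a microfibril-associated glycoprotein (chr11:61485431-61488900), had the largest interaction of the named opposite genes. Its levels were 0.862, 0.492 and 0.462 FPKM in wild-type cord against 2.64, 2.02 and 2.17 in S87L cord. They were 114, 115 and 111 in wild-type MEF against 38.5 and 38.1 in S87L MEF. The effects were 1.34 ± 0.12 and -1.55 ± 0.14 with an interaction of -2.89 ± 0.18 (limma adjusted p = 7.23e-06). Elastin itself (Eln) moved mainly in the cultures, from 238, 239 and 240 FPKM to 71.5 and 89.2. In cord it stayed low, at 0.616 to 0.866 in wild-type and 1.12 to 1.24 in S87L, a called rise of 0.47 ± 0.09. Mfap5, another microfibril protein, changed by 0.59 and -0.60, and fibulin 1 (Fbln1) by 0.24 and -0.32. The Fbln1 rise in cord was lost without WT_SC replicate 2 or S87L_SC replicate 1 or 2, with an adjusted p of up to 0.0644. Not every member split: Efemp1 and Fbln2 rose in both tissues and fibrillin 1 (Fbn1) fell in both, by 0.24 in cord and 0.26 in MEF. The opposite count fell to 3 without WT_SC replicate 2 or S87L_SC replicate 1 or 2. The MEF falls numbered 5 without S87L_MEF replicate 1.

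Dermatopontin (Dpt), which links decorin to collagen fibrils, joined this pattern. Dpt read 1.25 to 1.66 FPKM in wild-type cord and 2.43 to 3.12 in S87L cord, and 6.14 to 6.81 in wild-type MEF against 2.58 and 2.69 in S87L MEF. Its effects were 0.78 ± 0.09 and -1.15 ± 0.10.

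Collagen chains, the main fibre proteins of the matrix, divided by chain. Of 24 tested, 3 rose and 9 fell in S87L cord, and none rose while 14 fell in S87L MEF. The interaction was below 0 in 11 and above 0 in 1. The 3 that rose in cord were the fibrillar chains Col1a1, Col1a2 and Col3a1. Col1a1 rose from 1.76 to 2.21 FPKM in wild-type cord to 4.08 to 4.99 in S87L cord. In MEF its values were 2405 to 2442 in wild-type and 2129 and 2371 in S87L, an effect of -0.11 ± 0.09 (limma adjusted p = 0.454). Col3a1 was opposite, at 0.42 ± 0.04 in cord and -0.38 ± 0.04 in MEF. The same-way falls were of other chains, Col6a1, Col9a3, Col11a2, Col12a1, Col23a1 and Col27a1. Col23a1, a transmembrane collagen, fell by 0.27 in cord and by 1.06 in MEF, so the interaction was called within a same-way response. Col11a1, a cartilage-type fibrillar chain, fell in cord alone, from 1.9 to 2.3 FPKM to 0.895 to 1.06, with MEF values of 72.3 to 78.0 and 75.4 to 80.0.

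Enzymes that cut the matrix, and their inhibitors, were mixed. Of 23 tested, 3 rose and 6 fell in cord and 2 rose and 10 fell in MEF. Timp3, an inhibitor of metalloproteinases, was opposite at 0.29 and -0.32, as was the protease cathepsin K (Ctsk) at 0.20 and -0.35. The Ctsk call in cord was lost without WT_SC replicate 1 or 2 or S87L_SC replicate 1 or 3 (up to 0.0753). Mmp14, a membrane metalloproteinase, fell in both, from 3.23 to 3.87 FPKM to 1.82 to 2.01 in cord and from 155 to 159 to 129 and 136 in MEF. The Mmp14 fall in MEF was lost without any 1 of the 5 MEF libraries, with an adjusted p of up to 0.179. Of these enzymes and inhibitors, the falls in cord numbered 3 without S87L_SC replicate 2 and the rises 1 without S87L_SC replicate 3.

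The contractile genes of smooth muscle followed the same opposite pattern in part. Of 20 tested, 9 rose and 2 fell in S87L cord, 2 rose and 5 fell in S87L MEF, and the interaction was below 0 in 10. The median effect was 0.19 in cord and -0.02 in MEF. Myl9, the regulatory light chain of smooth muscle myosin, rose from 8.17 to 9.55 FPKM to 13.2 to 14.0 in cord. In MEF Myl9 fell from 304 to 318 to 189 and 214, and its effects were 0.58 ± 0.06 and -0.62 ± 0.07. Myh11, the smooth muscle myosin heavy chain, changed by 0.76 and -0.71, and the kinase Mylk by 0.25 and -0.61. Desmin (Des), an intermediate filament protein of muscle, rose from 0.486 to 0.662 FPKM to 1.90 to 2.06 in cord. Its fall of 0.25 in MEF was lost without any 1 of the 5 MEF libraries. By contrast smooth muscle actin (Acta2) and transgelin (Tagln) rose in cord alone. Acta2 went from 3.73 to 3.88 FPKM to 8.03 to 8.46 in cord, an effect of 1.02 ± 0.04. In MEF, where it was abundant, Acta2 had an adjusted p of 0.984 in limma, with values of 1101 to 1112 in wild-type and 1066 and 1144 in S87L. Tagln changed by 0.86 ± 0.06 in cord and 0.08 ± 0.07 in MEF.

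Promoters of this contractile group were searched for the CArG box, the site of serum response factor, as CC, then 6 bases that are each A or T, then GG. In the 250 bases before the RefSeq start on GRCm38.p6, 1.47% of 32851 promoters held it on either strand. Counted by gene, 1.62% of 27025 held it, and so did 4 of 17 contractile genes with an entry. Of these 4 genes Myl9 alone was opposite, and Cnn2, Myl6 and Vcl had effects of -0.16, -0.01 and -0.06 in cord. The Myl9 box lies 161 to 152 bases before the start. It is shown in capitals within a run of 40 bases at chr2:156775288-156775327 on the + strand.
Myl9: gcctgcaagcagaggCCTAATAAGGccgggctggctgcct

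Insulin-like growth factor binding proteins, secreted carriers that hold the growth factor outside the cell, held 2 of the opposite genes. Igfbp2 read 15.8, 16.8 and 18.7 FPKM in wild-type cord and 23.9, 26.8 and 29.4 in S87L cord. In MEF it read 250, 254 and 259 against 98.5 and 111. Its effects were 0.63 ± 0.08 and -1.28 ± 0.09, and those of Igfbp3 were 0.30 ± 0.05 and -1.03 ± 0.06. Igfbp4 fell in MEF from 149 to 158 FPKM to 84.6 and 93.8, with values of 6.38 to 9.08 over all cord libraries. The receptor Igf2r fell in cord alone, by 0.28 ± 0.04. Over the 15 genes of the system tested, 3 rose and 2 fell in cord and 1 rose and 4 fell in MEF.

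Retinoic acid, a signal made from vitamin A, is supplied to the cord by the meninges. Of 14 genes of its synthesis and response, 5 rose in cord and 5 fell in MEF, and none moved the other way. Opposite responses were called for Aldh1a2, Aldh1a1, Crabp2 and Rxra. Aldh1a2, the main embryonic synthesis enzyme, read 2.84 to 3.34 FPKM in wild-type cord, 5.35 to 5.54 in S87L cord, 5.61 to 5.81 in wild-type MEF and 3.39 and 3.69 in S87L MEF. The S87L order of the tissues was therefore the reverse of the wild-type order for Aldh1a2, with an interaction of -1.34 ± 0.09 (limma adjusted p = 5.67e-06). Aldh1a1 changed by 0.33 and -0.39, its MEF call being lost without S87L_MEF replicate 2 (adjusted p = 0.0741). The opposite count fell to 2 without WT_MEF replicate 1 or 3 or S87L_MEF replicate 1.

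Markers of fibroblast-like cells moved with these results. Of 12 tested markers of meninges and fibroblasts, 10 rose in cord and 7 fell in MEF, with 7 opposite. Dcn, Lum, Ogn, Col1a1, Col1a2, Col3a1, Aldh1a2 and Crabp2, described above, stand on that list too. In FPKM the whole list summed to 350.6 to 375.9 in wild-type cord and 465.7 to 496 in S87L cord, and to 3892 to 3913 in wild-type MEF and 3366 to 3636 in S87L MEF. Slc6a13 and Slc22a6, markers of meningeal barrier cells, were at 0 in MEF. Skeletal muscle markers summed to 202.9 to 223.8 FPKM in wild-type cord and 292.7 to 303.5 in S87L cord. In MEF they summed to 21.2 to 22.4 and 22.2 to 24.2. The part of cell or tissue composition in the opposite responses was not tested.

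**Figure D2:**
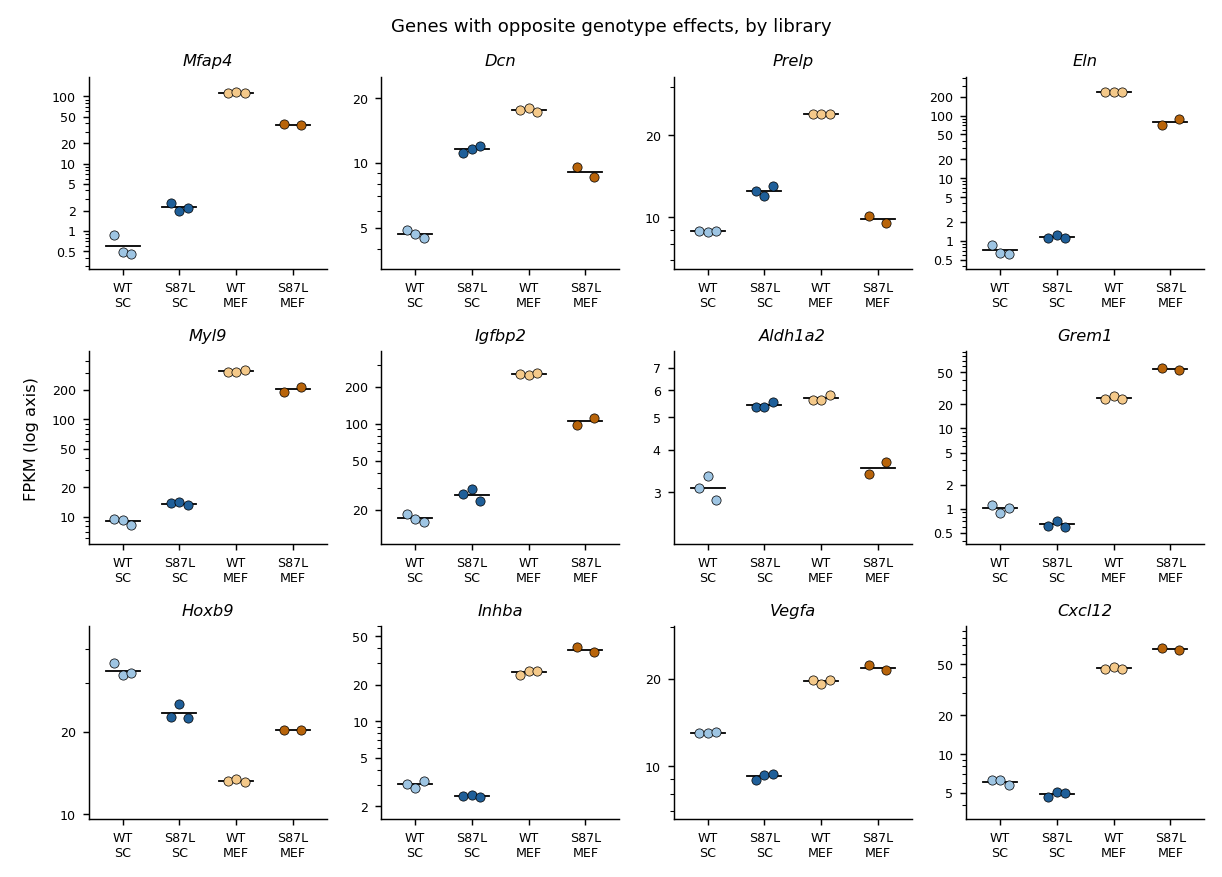
FPKM of 12 opposite genes in each of 11 libraries (points, log axis; bars are group means), for wild-type and S87L spinal cord (SC, blue) and MEF (orange). In all 12 the shift from wild-type to S87L runs one way in cord and the other way in MEF, as for Dcn, Prelp and Aldh1a2.

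Skeletal muscle genes rose in cord. Tnnt3, the fast skeletal troponin T (chr7:142498836-142516009), read 4.12, 3.12 and 3.71 FPKM in wild-type cord and 12.8, 12.6 and 12.5 in S87L cord. In MEF it was low, at 1.02 to 1.85 in wild-type and 0.385 and 0.595 in S87L. Its effects of 1.67 ± 0.15 and -0.89 ± 0.17 made it opposite. Skeletal actin (Acta1) rose in both tissues but unequally, from 3.47 to 4.85 FPKM to 19.2 to 21.4 in cord and from 5.66 to 6.63 to 8.92 and 9.58 in MEF. The Acta1 interaction was -1.70 ± 0.16, and its rise in MEF was lost without S87L_MEF replicate 2 (limma adjusted p = 0.0541). All 5 skeletal muscle markers that could be tested rose in cord and had an interaction below 0, of which 3 remained called without S87L_SC replicate 2, WT_MEF replicate 1 or WT_MEF replicate 3. The other 19 markers of the list were under 0.5 FPKM in MEF.

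Immune genes held further opposite responses. Of 27 interferon-stimulated genes tested, 4 rose and 1 fell in cord and 1 rose and 9 fell in MEF, and the interaction was below 0 in 9. The median effect was 0.07 in cord and -0.22 in MEF. Bst2, tetherin, which holds budding viruses on the cell, read 4.46 to 4.64 FPKM in wild-type cord and 5.95 to 6.46 in S87L cord, then 14.3 to 15.4 and 10.8 and 11.6 in MEF. Its effects were 0.42 ± 0.05 and -0.41 ± 0.06. Ifit1, which binds foreign RNA, was opposite at 0.36 and -0.68, the cord call being lost without WT_SC replicate 2 or 3 or S87L_SC replicate 1 or 2 (up to 0.104). Ifi27 fell in MEF alone, from 14.6 to 16.7 FPKM to 9.24 and 9.91, with cord values of 28.5 to 30.5. Without WT_SC replicate 2, WT_SC replicate 3 or S87L_SC replicate 1, only 2 of the interferon genes rose in cord. The class I antigen gene H2-Q4, one of several near-identical copies whose reads may be shared, changed by 0.48 and -0.51. Its call in cord was lost without S87L_SC replicate 1 or 2 (up to 0.0536), and that in MEF without WT_MEF replicate 2 or 3 or either S87L_MEF library (up to 0.0927). Among 15 cytokines and chemokines, Cxcl14 was opposite at 0.51 and -0.38 and Cxcl12 opposite the other way at -0.29 and 0.49.

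Microglia and macrophage markers moved with these immune genes. Of 21 tested, 12 rose in cord, 6 fell in MEF and 15 had an interaction below 0. The opposite ones were Laptm5, Ctss, Tmem119 and Fcgr3, the Laptm5 call in MEF being lost without S87L_MEF replicate 2 (adjusted p = 0.0712). Tmem119, a microglial surface protein that fibroblasts and bone-forming cells make too, read 12.4 to 12.6 FPKM in wild-type cord and 14.6 to 16.1 in S87L cord. In MEF it read 58.0 to 59.0 and 43.0 and 44.0. The lysozyme gene Lyz2 rose in cord alone, from 16.8 to 19 FPKM to 27.1 to 29.0, with 135 to 140 and 127 and 130 in MEF. The adaptor Tyrobp rose in cord alone as well, by 0.51 ± 0.05. The list summed to 427.5 to 450.9 FPKM in wild-type cord and 537.3 to 544.9 in S87L cord, and to 548.8 to 563.3 and 486.9 to 493.5 in MEF, so markers of this lineage were present in the cultures too. Cx3cr1 stood at 10.4 to 11.8 FPKM over the cord libraries and 5.76 to 7.74 over the MEF libraries. P2ry12, which marks resting microglia, stood at 13 to 17.4 in cord and at 0.437 to 0.922 in MEF. Without WT_MEF replicate 2 the falls in MEF numbered 3 and the opposite genes 2. The part of immune cell number in the immune results was not tested.

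The reverse pattern, lower in S87L cord and higher in S87L MEF, held growth and patterning signals. Gremlin 1 (Grem1), a secreted BMP antagonist (chr2:113746164-113758646), had the largest interaction of the named genes in this direction. It read 1.12, 0.896 and 1.02 FPKM in wild-type cord and 0.613, 0.711 and 0.594 in S87L cord, close to the lower limit of expression. In MEF it read 23.4, 25.6 and 23.5 for wild-type against 55.9 and 53 for S87L. The effects were -0.41 ± 0.07 and 1.16 ± 0.07 with an interaction of 1.56 ± 0.10 (limma adjusted p = 5.09e-06). Inhba, the activin A subunit, read 2.85 to 3.21 and 2.37 to 2.48 FPKM in cord, and 24.1 to 25.8 and 37.0 and 40.3 in MEF. Skil, a repressor of TGF-beta signalling, shared that direction at -0.21 and 0.27, while the ligand Tgfb3 moved the other way at 0.35 and -0.27. The Skil call was lost in MEF without WT_MEF replicate 2 or S87L_MEF replicate 1 (adjusted p up to 0.149). In cord it was lost without WT_SC replicate 2 or 3 or S87L_SC replicate 1 or 2 (up to 0.117). Over 22 genes of TGF-beta signalling, the interaction was above 0 in 5 and below 0 in 6, or in 3 without WT_SC replicate 3, S87L_SC replicate 2 or S87L_MEF replicate 1.

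Vegfa, the main growth factor of blood vessels, fell from 13 to 13.1 FPKM in wild-type cord to 8.97 to 9.36 in S87L cord, an effect of -0.48 ± 0.04. In MEF Vegfa rose by 0.15 ± 0.04, from 19.2 to 19.9 to 21.4 and 22.3, a call lost without WT_MEF replicate 2 or 3 or S87L_MEF replicate 1 (up to 0.153). Epas1, an oxygen-sensing transcription factor, moved the other way at 0.40 and -0.28. The chemokine Cxcl12 stood at 5.72 to 6.28 and 4.66 to 5.02 FPKM in cord, and at 46.0 to 47.3 and 64.1 and 66.7 in MEF. Cd24a, a small surface glycoprotein of immature neurons and other progenitors, read 40.2 to 41.7 FPKM in wild-type cord and 33.5 to 34.9 in S87L cord. In MEF Cd24a read 13.8 to 15 and 25.2 and 25.5, and its effects were -0.25 ± 0.04 and 0.80 ± 0.04. Pla2g4a, the phospholipase that frees arachidonic acid, changed by -0.24 and 0.59. Its fall in cord was lost without WT_SC replicate 2 or 3 or S87L_SC replicate 1 or 2 (up to 0.0961). Wsb1, a substrate receptor of a ubiquitin ligase, fell by 0.70 in cord, and its rise of 0.18 in MEF was lost without S87L_SC replicate 2, any WT_MEF library or S87L_MEF replicate 1 (up to 0.221).

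Hox genes, which give cells their position along the body axis, divided by group number. Of the 6 tested genes of groups 9 to 13, all 6 fell in S87L cord, with a median of -1.31, and all 6 interactions were above 0. In MEF 1 rose and none fell, with a median of -0.02. Hoxa10 went from 4.37, 4.49 and 5.01 FPKM to 0.653, 0.660 and 0.491 in cord, an effect of -2.22 ± 0.07. Its MEF values were 7.66 to 8.62 in wild-type and 7.4 and 7.4 in S87L. Hoxc10 went from 8.71 to 9.55 FPKM to 2.14 to 2.52 in cord, at -1.78 ± 0.07, with -0.07 ± 0.08 in MEF. Hoxa9 and Hoxc9 also fell in cord alone, by 1.19 ± 0.07 and 0.88 ± 0.10. Hoxb9 was opposite, with 32.1 to 35.5 FPKM against 22.4 to 25.1 in cord and 13.2 to 13.4 against 20.3 and 20.3 in MEF. Groups 1 to 8 behaved otherwise: of 18 tested, 3 rose in cord and 11 rose in MEF, and none fell in either. Their median effect was 0.06 in cord and 0.38 in MEF. Hoxb6, Hoxb3 and Hoxc8 rose in MEF alone, and Hoxa5 and Hoxc5 rose in both tissues. Hoxa5 read 14.0 to 15.9 and 22 to 24.9 FPKM in cord and 7.01 to 7.35 and 10.6 and 11.1 in MEF, and its effects of 0.60 and 0.57 differed by less than their error. The MEF count of groups 1 to 8 was 7 without S87L_MEF replicate 1, which also ended the MEF calls of Hoxb3 (0.0855) and Hoxc5 (0.0791). Where along the cord or the fetal body the samples were taken cannot be told apart from genotype here.

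Long noncoding RNAs of the nucleus fell in cord. Of 11 tested, 8 fell in cord and had an interaction above 0, and 6 of them met the rule for cord alone. In MEF limma called none, 4 were above 0 at an unadjusted p under 0.05, and voom called 1. Meg3, an imprinted RNA of the Dlk1-Dio3 region (chr12:109541001-109571726), read 93.9, 92.4 and 89.7 FPKM in wild-type cord and 38.1, 38.4 and 38.6 in S87L cord. In MEF it read 17.6 to 18.1 and 15.8 and 18.0. The cord effect was -1.25 ± 0.05 and the MEF effect -0.07 ± 0.05. Malat1, an abundant RNA of nuclear speckles, fell from 278 to 294 FPKM to 165 to 178 in cord, with MEF values of 194 to 213 over all libraries. Neat1, the scaffold of paraspeckles, fell by 0.85 ± 0.05 in cord and changed by 0.01 ± 0.05 in MEF. Mirg, the miRNA host of the Meg3 region, fell by 0.84 in cord. Xist fell by 0.53 ± 0.07 in cord, with 23.6 to 28.3 FPKM in wild-type and 17.3 to 18.9 in S87L. Malat1, Neat1 and Xist stay in the nucleus, and the share of nuclear RNA per library was not tested.

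The unfolded protein response raises chaperones of the endoplasmic reticulum when proteins misfold there. Of 25 genes tested, 16 rose and none fell in S87L cord, while 1 fell and none rose in S87L MEF. The interaction was below 0 in 11. The median effect was 0.17 in cord and -0.02 in MEF, and the median interaction was -0.18. The ER stress element, CCAAT then 9 bases of any kind then CCACG, binds the factors of this response. It was found on either strand in the 250 bases before the start in 37 of 32851 RefSeq promoters on GRCm38.p6 (0.113%). Counted by gene, it was found in 35 of 27025 (0.13%) and in 8 of the 21 response genes with an entry. It was searched for after the values were known. The elements of all 8 are shown, with the 19 bases in capitals, because they stand before genes that rose in cord and before Canx and Syvn1, whose rise did not pass the test. For Hsp90b1, which has a second element, the one farther from the start is given. Each run is on the gene's strand, 5' to 3', and in Calr and Creld2 the element reads on the other strand.
Hspa5: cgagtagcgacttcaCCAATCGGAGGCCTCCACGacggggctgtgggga
Pdia6: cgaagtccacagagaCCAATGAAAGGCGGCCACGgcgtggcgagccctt
Dnajc3: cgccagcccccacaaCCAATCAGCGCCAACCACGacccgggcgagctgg
Calr: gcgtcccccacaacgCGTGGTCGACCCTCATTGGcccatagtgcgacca
Creld2: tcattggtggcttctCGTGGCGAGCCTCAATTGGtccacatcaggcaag
Hsp90b1: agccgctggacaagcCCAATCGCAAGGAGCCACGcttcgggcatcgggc
Canx: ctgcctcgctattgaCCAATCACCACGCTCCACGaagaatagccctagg
Syvn1: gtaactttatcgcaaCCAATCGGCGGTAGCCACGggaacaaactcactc
In Hspa5 the run lies at chr2:34772010-34772058 (+), in Pdia6 at chr12:17266476-17266524 (+) and in Dnajc3 at chr14:118937812-118937860 (+). In Calr it lies at chr8:84847060-84847108 (-), in Creld2 at chr15:88819505-88819553 (+), in Hsp90b1 at chr10:86705623-86705671 (-), in Canx at chr11:50325785-50325833 (-) and in Syvn1 at chr19:6046517-6046565 (+).

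Hspa5, the master chaperone BiP, read 115, 112 and 111 FPKM in wild-type cord and 138, 140 and 142 in S87L cord. In MEF it read 293, 294 and 298 for wild-type against 279 and 286 for S87L. The groups did not overlap in cord, and the effects were 0.31 ± 0.03 and -0.06 ± 0.03 with an interaction of -0.38 ± 0.04 (limma adjusted p = 0.000283). Sdf2l1, a partner of BiP, had the largest rise of those named, from 17.5 to 18.0 FPKM to 26.5 to 30.5 in cord. Its MEF values of 17.9 to 18.6 and 17.8 and 21.2 overlapped. Dnajb11, a cochaperone, rose by 0.23 ± 0.04 in cord. Pdia6, an isomerase of disulfide bonds, rose by 0.27 in cord and stood at 138 to 141 and 134 and 145 FPKM in MEF. Creld2 rose by 0.47 in cord, Dnajc3 by 0.27 and the chaperone Hsp90b1 by 0.29. Canx, calnexin, had 0.10 ± 0.04 in cord (limma adjusted p = 0.106) and 0.13 ± 0.04 in MEF (0.0633). For Dnajc3 the interaction was -0.19 (limma adjusted p = 0.0844). Hsp90b1 had 0.13 in MEF and an adjusted p of 0.105 for the interaction in limma. Neither response was shown to differ between tissues. Calr, calreticulin, was the opposite gene, at 133 to 135 and 146 to 152 FPKM in cord and 467 to 493 and 428 and 441 in MEF. Its MEF call was lost without WT_MEF replicate 2 or 3 or S87L_MEF replicate 1 (up to 0.0918). Syvn1, the ligase that clears misfolded proteins, had 0.07 ± 0.05 in cord and -0.04 ± 0.06 in MEF. The interactions below 0 numbered 7 without S87L_SC replicate 1, WT_MEF replicate 2 or WT_MEF replicate 3.

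Heat shock proteins, the chaperones of the cytosol, rose in cord and partly in MEF. Of 24 tested, 14 rose in cord, 7 rose and 1 fell in MEF, and 8 interactions were below 0. Hspa1b, an inducible HSP70, read 3.73 to 4.39 FPKM in wild-type cord and 10.3 to 11.6 in S87L cord, with 6.28 to 7.28 over the MEF libraries. It has a near-identical copy, Hspa1a, at 0.71 in cord and -0.27 in MEF, and reads may have been split between them. Dnajb1 and Hsph1 rose in cord alone, by 0.43 ± 0.04 and 0.42 ± 0.04. Hsp90aa1, Chordc1, Dnajb4 and Dnaja1 rose in both tissues. Heat shock genes called the same way in both numbered 2 without WT_SC replicate 1 or 2, S87L_SC replicate 2 or 3 or WT_MEF replicate 1 or 2. They numbered 3 without WT_SC replicate 3, S87L_SC replicate 1 or WT_MEF replicate 3. The count was also lower without either S87L_MEF library, which leaves 1 library in that group. Cryab, a small heat shock protein, was opposite, at 203 to 217 and 252 to 268 FPKM in cord and 43.3 to 47.5 and 34.4 and 35.6 in MEF. The rises in MEF numbered 4 without S87L_MEF replicate 1. The integrated stress response slows translation and raises amino acid supply. Of its 33 genes, 12 rose and 2 fell in cord, and 1 rose and 2 fell in MEF, where no fall was left without S87L_MEF replicate 1. Its enzymes Mthfd2 and Gpt2 rose in cord alone, by 0.43 ± 0.03 and 0.42 ± 0.04, with 0.07 and 0.05 in MEF. Nupr1, a stress-induced nuclear protein, rose from 2.28 to 2.63 FPKM to 3.94 to 4.73 in cord and had -0.18 ± 0.08 in MEF. The amino acid transporter Slc7a5 was opposite, at 0.28 and -0.34. Its cord call was lost without WT_SC replicate 2 or 3 or S87L_SC replicate 1 (up to 0.056) and its MEF call without S87L_MEF replicate 1 (0.0695).

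Genes induced by glucocorticoids, the stress steroids, rose mainly in cord. Of 17 tested, 14 rose in cord and 5 rose and 1 fell in MEF, and 10 interactions were below 0. The median effect was 0.56 in cord and 0.12 in MEF. Fkbp5, a chaperone of the steroid receptor, read 4.15 to 4.60 FPKM in wild-type cord, 7.48 to 8.19 in S87L cord, 4.94 to 5.29 in wild-type MEF and 4.78 and 5.73 in S87L MEF. It rose in cord alone, by 0.78 ± 0.07, as did the transcription factor Klf9, by 0.44 ± 0.03. Tsc22d3, the leucine zipper GILZ, was opposite, at 55.5 to 58.7 and 79.1 to 80.6 FPKM in cord and 9.04 to 9.96 and 7.72 and 7.78 in MEF. Plin4, a lipid droplet protein, rose from 6.06 to 6.51 FPKM to 12.7 to 13.5 in cord and by 0.26 ± 0.07 in MEF, a call lost without S87L_MEF replicate 1 (0.218) and 4 other libraries. The MEF rises numbered 3 without WT_MEF replicate 3 or S87L_MEF replicate 1.

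Replication-dependent histone genes, which make the histones of new chromatin, rose in cord for 8 of 14 tested and in MEF for 1. Hist1h1c, a linker histone, read 15.3 to 18.6 and 20.8 to 23.7 FPKM in cord and 25.9 to 33.4 and 23 and 23.8 in MEF. Hist1h2bc read 19.8 to 23.9 and 27.4 to 32.3 in cord and 16.4 to 20.5 over the MEF libraries. These genes have near-identical copies, and the cord count was only 2 without S87L_SC replicate 1. Their messages mostly lack poly(A) tails, and the labels name no step of RNA selection.

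**Figure D3:**
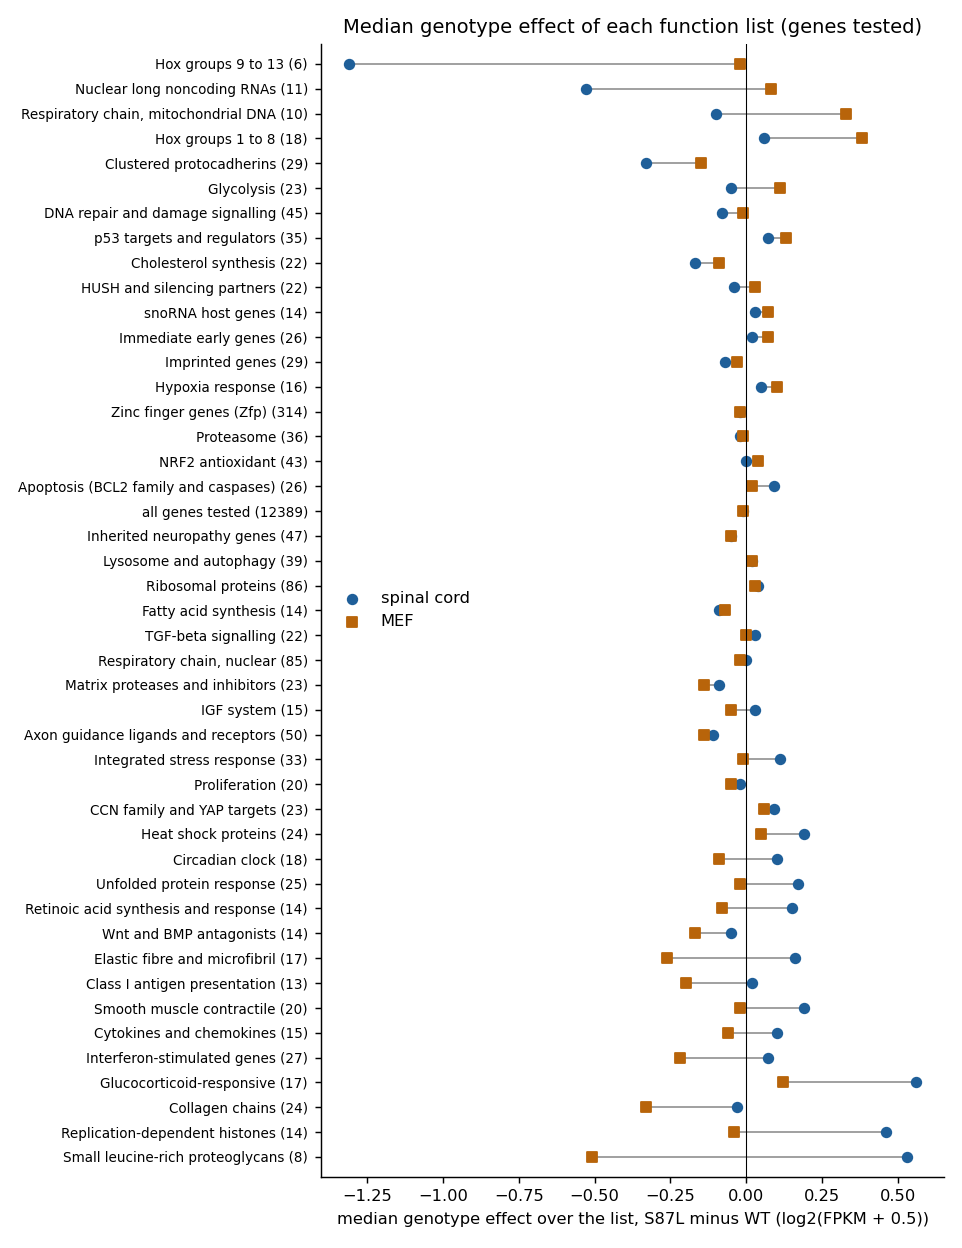
Median genotype effect in spinal cord (blue circles) and MEF (orange squares) over each function list, with the number of genes tested in brackets, on the log2(FPKM + 0.5) scale and ordered by the median interaction. The median interaction was -1.15 for the proteoglycans, -0.52 for the histones and 1.33 for Hox groups 9 to 13.

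The named genes that fell in MEF alone were Sfrp2, Fabp7, Lgr5 and Cpxm2. Sfrp2, a secreted modulator of Wnt signalling (chr3:83766321-83774316), read 75.0, 77.5 and 72.0 FPKM in wild-type MEF and 25.2 and 24.8 in S87L MEF. In cord it read 1.38 to 1.90 in wild-type and 1.79 to 1.82 in S87L. The MEF effect was -1.56 ± 0.08 and the cord effect 0.08 ± 0.08. Lgr5, a receptor that strengthens Wnt signals, fell from 5.94 to 6.12 FPKM to 2.29 and 2.42. Fabp7, a fatty acid binding protein of radial glia, fell from 2.62 to 2.99 to 0.638 and 1.11 in MEF. In cord, where Fabp7 was more abundant, it stood at 27.9 to 29.7 over all libraries. Cpxm2, a carboxypeptidase-like secreted protein, fell from 7.02 to 7.11 to 2.73 and 3.05, an effect of -1.16 ± 0.07. Of 14 Wnt and BMP antagonists tested, 1 rose and 3 fell in cord and 1 rose and 7 fell in MEF. Nog, the BMP antagonist noggin, fell in MEF by 0.65 ± 0.11, so it and Grem1 moved apart in the same cultures.

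Spp1, osteopontin, a secreted bone and immune glycoprotein, rose in MEF alone. It read 166, 167 and 172 FPKM in wild-type MEF and 335 and 340 in S87L MEF, and 69.7 to 77.0 over all cord libraries. The effects were 1.0 ± 0.04 and 0.08 ± 0.03 with an interaction of 0.92 ± 0.05 (limma adjusted p = 1.71e-06). The markers of cartilage and bone, Spp1 among them, summed to 360.4 to 373.8 FPKM in wild-type MEF and 526.3 to 530.3 in S87L MEF. Of the 7 tested 1 rose and 2 fell in MEF, Spp1 being the one that rose. Flt4, the receptor of lymphatic growth factors, rose from 0.752 to 1.03 FPKM to 1.83 and 2.17. Mfap3l and the kinase Cdk18 rose in MEF by 0.81 ± 0.07 and 0.77 ± 0.08, with 0.01 and 0.02 in cord. Among axon guidance genes, 50 of which were tested, Sema3a rose in MEF alone by 0.55 ± 0.06, and Sema5a and Ntn1 fell in MEF alone by 0.49 and 0.51. In that list 7 rose and 18 fell in MEF and 1 rose and 13 fell in cord. Of the 50, 6 fell in both tissues, against 1.53% of all genes tested, and 1 was opposite. In MEF alone 3 rose and 3 fell, and 2 fell in cord alone. The shared falls numbered 3 without WT_SC replicate 2 or 3, and 2 without S87L_SC replicate 1 or 2 or WT_MEF replicate 3. They numbered 1 without WT_MEF replicate 1 or 2. The cord falls numbered 7 without WT_SC replicate 3 or S87L_SC replicate 1 or 2, and 8 without any other cord library. The MEF falls numbered 11 without S87L_MEF replicate 2, and the MEF rises 2 or 3 without any WT_MEF library or S87L_MEF replicate 1.

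Energy genes were counted in 3 lists. Of 23 glycolysis genes, 1 rose and 3 fell in cord and 6 rose and 1 fell in MEF. Ldhb, a lactate dehydrogenase subunit, rose in MEF alone, from 20.8 to 21.6 FPKM to 29.7 and 31.3, with 402 to 415 in cord. Its partner Ldha fell in cord alone, from 31.7 to 33.7 to 26.4 to 26.5. Aldoc, a brain aldolase, fell in MEF from 1.46 to 1.77 to 0.888 and 0.907 and stood at 440 to 457 in cord. The glycolysis rises in MEF numbered 2 without S87L_MEF replicate 2 and 11 without S87L_MEF replicate 1. Of 10 genes of mitochondrial DNA, 6 rose in MEF and none passed in cord. The MEF rises numbered 1 without WT_MEF replicate 1 or 3, and 3 without WT_MEF replicate 2 or S87L_SC replicate 1. They also depended on S87L_MEF replicate 1, without which that group holds 1 library. In voom 1 was called in MEF. Called interactions above 0 numbered 3. The count was 1 without WT_SC replicate 3, S87L_SC replicate 1 or 2 or WT_MEF replicate 1 or 3. It was 5 without S87L_SC replicate 3 and 6 without WT_SC replicate 1. The count also changed without either S87L_MEF library, which leaves that group 1 library. The 3 called genes were mt-Nd1, mt-Cytb and mt-Nd2. Under quantile normalization none of them stayed called (limma adjusted p = 0.584, 0.158 and 0.354). In cord none of the 10 had an unadjusted p under 0.05, and voom called none. The 85 nuclear respiratory genes held 1 called interaction, 86 ribosomal protein genes none, 36 proteasome genes 1 and 14 snoRNA host genes none, against 13.2% of all genes. At an unadjusted p under 0.05 the ribosomal genes held no interaction and the snoRNA hosts 1. For the nuclear respiratory genes these counts depended on which S87L MEF library was used: without replicate 1 there were 4 interactions above 0, and without replicate 2 there were 4 below 0 and 12 falls in MEF against 2 with both. The proteasome interactions above 0 numbered 0 to 2 when 1 library was left out, with 1 below 0 without WT_SC replicate 1 or S87L_SC replicate 3, and the ribosomal and snoRNA counts were each 1 without S87L_MEF replicate 2.

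Genes that moved the same way in both tissues included several clustered zinc finger genes. Zfp970 (chr2:177464733-177478129) read 6.53, 7.84 and 7.67 FPKM in wild-type cord and 2.46, 3.14 and 2.34 in S87L cord. In MEF it read 1.79, 1.86 and 2.18 against 0.567 and 0.561. Its effects were -1.32 ± 0.10 and -1.19 ± 0.12, and the interaction was 0.13 ± 0.15 (limma adjusted p = 0.631). Within 1 Mb of it 11 genes were tested and 3 others fell in both tissues, Gm14295, Gm14305 and Gm14403, which are zinc finger gene models of the same cluster. On chromosome 4, Zfp991 and Zfp992 rose in both. Zfp991 (chr4:147132038-147180579) read 1.04 to 1.36 and 2.2 to 2.72 FPKM in cord and 2.46 to 2.74 and 5.04 and 6.38 in MEF. Zfp992 rose by 0.65 ± 0.12 in cord and 1.22 ± 0.13 in MEF. Znf41-ps, a zinc finger pseudogene of the same chromosome, rose by 0.73 and 0.77. Zfp760 fell by 0.61 in cord and 0.58 in MEF. Zfp873 fell by 0.68 and 0.56, with the MEF call lost without WT_MEF replicate 1 or 2 or either S87L_MEF library (up to 0.123). Within 1 Mb of Zfp760 none of the 21 tested genes moved the same way in both tissues. Near Zfp873, 34 were tested and 2 fell in both tissues, Tle2 and BC024063. Near-identical copies within zinc finger clusters may share reads. Over all 314 Zfp genes tested, 15 rose and 24 fell in cord, 23 rose and 28 fell in MEF, and 3 rose and 10 fell in both. Among all genes tested 6.19% rose and 8.13% fell in cord, and 7.75% rose and 9.15% fell in MEF. In both tissues 0.912% of all genes rose and 1.53% fell. The median effect of the Zfp genes was -0.02 in each tissue, against -0.01 over all genes. Without S87L_MEF replicate 1 the MEF rises numbered 7, and without S87L_SC replicate 2 the cord rises numbered 6. The cord falls numbered 14 without WT_SC replicate 2 or S87L_SC replicate 1, and the MEF falls 14 to 17 without any 1 of the 5 MEF libraries.

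Morc2a itself (ENSMUSG00000034543, chr11:3649191-3690477) moved the same way too. It read 5.61, 5.66 and 5.71 FPKM in wild-type cord and 4.71, 4.93 and 4.95 in S87L cord, and 18.5, 18.8 and 18.3 in wild-type MEF against 16.4 and 16.4 in S87L MEF. The effects were -0.20 ± 0.04 (limma adjusted p = 0.00474) and -0.17 ± 0.04 (0.0166), and the interaction was 0.03 ± 0.06 (0.785). The MEF call was lost without WT_MEF replicate 2 or either S87L_MEF library (up to 0.0722). The S87L change is a substitution, so the level of the gene does not check the labels. Of 22 genes of HUSH and its silencing partners, 2 fell and none rose in cord. These 2 also fell in MEF, where 4 rose and 3 fell in all, and no interaction was called by limma. The shares over all genes tested were 8.13% lower in cord, 7.75% higher and 9.15% lower in MEF, and 13.2% with a called interaction. The MEF rises numbered 1 without WT_SC replicate 3, S87L_SC replicate 2, any WT_MEF library or S87L_MEF replicate 1, and 2 without S87L_SC replicate 1 or S87L_MEF replicate 2. The MEF falls and the same-way falls each numbered 1 without WT_MEF replicate 2 or either S87L_MEF library. Interactions above 0 numbered 3 without WT_SC replicate 1, 2 without S87L_SC replicate 3 and 1 without S87L_MEF replicate 2. At an unadjusted p under 0.05 5 of those interactions were above 0, and voom called 2. Of 29 tested protocadherins, surface proteins of neurons encoded in clusters with shared exons, 16 fell in cord, 4 fell and 1 rose in MEF, and 5 interactions were above 0. That last count was 1 without S87L_MEF replicate 1 and 3 without WT_SC replicate 2, S87L_SC replicate 1 or 2 or WT_MEF replicate 3. The MEF falls numbered 2 without WT_MEF replicate 1 or S87L_MEF replicate 2.

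The p53 pathway, which halts growth or kills cells after damage, gave same-way rises of 5 genes. These were Cdkn1a, Ccng1, Pmaip1, Trp53inp1 and Perp. Ccng1 read 20.8, 23.3 and 23.7 FPKM in wild-type cord and 31.4, 32.8 and 33.1 in S87L cord, and 96.5, 98.2 and 96.7 in wild-type MEF against 157 and 142 in S87L MEF. Its effects were 0.52 ± 0.05 and 0.62 ± 0.06. Pmaip1, the death protein NOXA, changed by 0.52 and 0.78, and Trp53inp1 by 0.45 and 0.54. Cdkn1a, the cell cycle inhibitor p21, rose more in cord, from 16.6 to 18.3 FPKM to 33.0 to 34.9, than in MEF, from 72.8 to 75.8 to 85.9 and 91.8. Its interaction was -0.69 ± 0.07, and it stands on the glucocorticoid list as well. Mdm2, which degrades p53, rose in MEF alone, from 15.7 to 17.6 to 23.1 and 24 FPKM, with 10.3 to 11.1 over all cord libraries. Plk2, a kinase, was opposite at -0.24 and 0.37, and Sesn1, which restrains growth signalling, at 0.35 and -0.30. The Sesn1 call in MEF was lost without WT_MEF replicate 1 or S87L_MEF replicate 2 (up to 0.0974). In all, 10 of 35 rose and 3 fell in cord and 10 rose and 1 fell in MEF.

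Genes of cholesterol synthesis fell without rising in either tissue. Of 22 genes, 11 fell in cord and 7 in MEF, none rose, and no interaction was called by limma, although 8 were above 0 at an unadjusted p under 0.05 and voom on recovered reads called 6. The median effect was -0.17 in cord and -0.09 in MEF. The 4 genes that fell in both were Lss, Sqle, Insig1 and Dhcr7. Lss, the enzyme that closes the sterol rings, read 5.20 to 5.45 and 3.99 to 4.09 FPKM in cord and 15.4 to 15.8 and 13.6 and 13.7 in MEF. The MEF falls numbered 2 without S87L_MEF replicate 1.

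Among the other named same-way genes, Rps4l, a ribosomal protein S4 relative, fell from 23.9 to 29.2 FPKM to 13.5 to 15.5 in cord and from 41.8 to 46.5 to 19.4 and 22.5 in MEF. Rbm12b1, an RNA-binding protein gene, fell by 0.72 ± 0.09 and 1.03 ± 0.10, and Sostdc1, a BMP and Wnt antagonist, by 0.61 and 0.86. Errfi1, a brake on growth factor receptors, rose from 27.8 to 29.4 to 41.2 to 42.5 in cord and from 18.9 to 19.4 to 29.2 and 30.8 in MEF. Of 29 imprinted genes, those expressed from 1 parental copy in at least some tissues, 1 rose and 4 fell in both tissues. Which copy was expressed was not measured here. Peg10, a gene derived from a retrotransposon, rose from 10.1 to 10.5 FPKM to 14.6 to 15.3 in cord and from 12.1 to 12.5 to 23.7 and 25.9 in MEF. Its interaction of 0.46 ± 0.06 was called, the rise in MEF being the larger. Ndn, Cdkn1c, Mest and Dhcr7 fell in both, and Dhcr7 stands on the cholesterol list as well. In the Dlk1-Dio3 region the coding gene Dlk1 fell in MEF alone, by 0.74 ± 0.06, while its noncoding neighbours Meg3 and Mirg fell in cord. H19 rose in cord from 0.583 to 0.718 FPKM to 1.5 to 1.68 and stood at 1587 to 1866 in MEF.

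**Figure D4:**
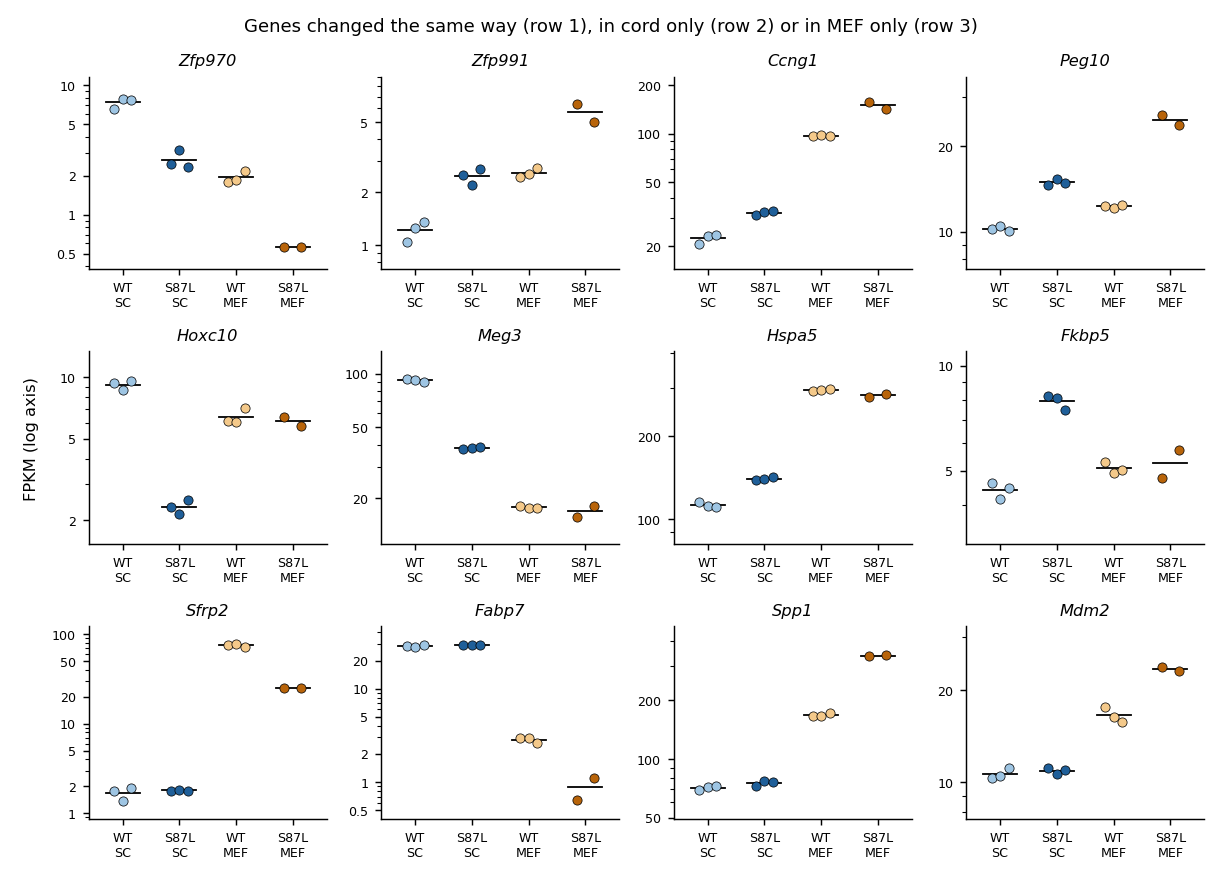
FPKM of 12 genes in each of 11 libraries (points, log axis; bars are group means) for wild-type and S87L spinal cord (SC, blue) and MEF (orange). Row 1 shows genes moved the same way, row 2 genes changed in cord alone, such as Meg3 and Hspa5, and row 3 genes changed in MEF alone, such as Sfrp2 and Spp1.

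Genes mutated in inherited neuropathies were described because the Morc2a variant belongs with them. Of 47 tested, 6 rose and 3 fell in cord, 2 rose and 7 fell in MEF, and the interaction was below 0 in 7 and above 0 in 2. Among all genes tested 6.19% rose and 8.13% fell in cord, and 7.75% rose and 9.15% fell in MEF. The interaction was below 0 in 7.14% of all genes and above 0 in 6.03%. The median interaction was 0.01 for the list and 0.01 for all genes. Prx, periaxin of the Schwann cell membrane, was opposite, at 1.87 to 2.19 and 2.95 to 3.12 FPKM in cord and 3.76 to 4.04 and 2.71 and 2.97 in MEF. Pmp22, a protein of compact myelin in nerves, was opposite at 0.14 ± 0.04 and -0.37 ± 0.04, with the cord call lost without WT_SC replicate 1 or 3 or any S87L_SC library (up to 0.0796). Bag3, a cochaperone, rose in cord alone, by 0.36 ± 0.05. Litaf, a regulator of protein sorting, rose in MEF by 0.21 ± 0.06, a call lost without S87L_MEF replicate 1 (0.223) and 5 other libraries. The Schwann cell markers summed to 143.8 to 148.4 FPKM in wild-type cord and 159.5 to 167.5 in S87L cord, and to 100.5 to 106.9 and 85.3 to 86.3 in MEF. Their part in the Prx and Pmp22 results was not tested. The cord rises of the neuropathy genes numbered 3 without WT_SC replicate 3 or S87L_SC replicate 2, and the MEF falls 3 without S87L_MEF replicate 1 and 4 without WT_MEF replicate 2. The interactions below 0 numbered 4 without WT_MEF replicate 1 or S87L_MEF replicate 1.

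**Figure D5:**
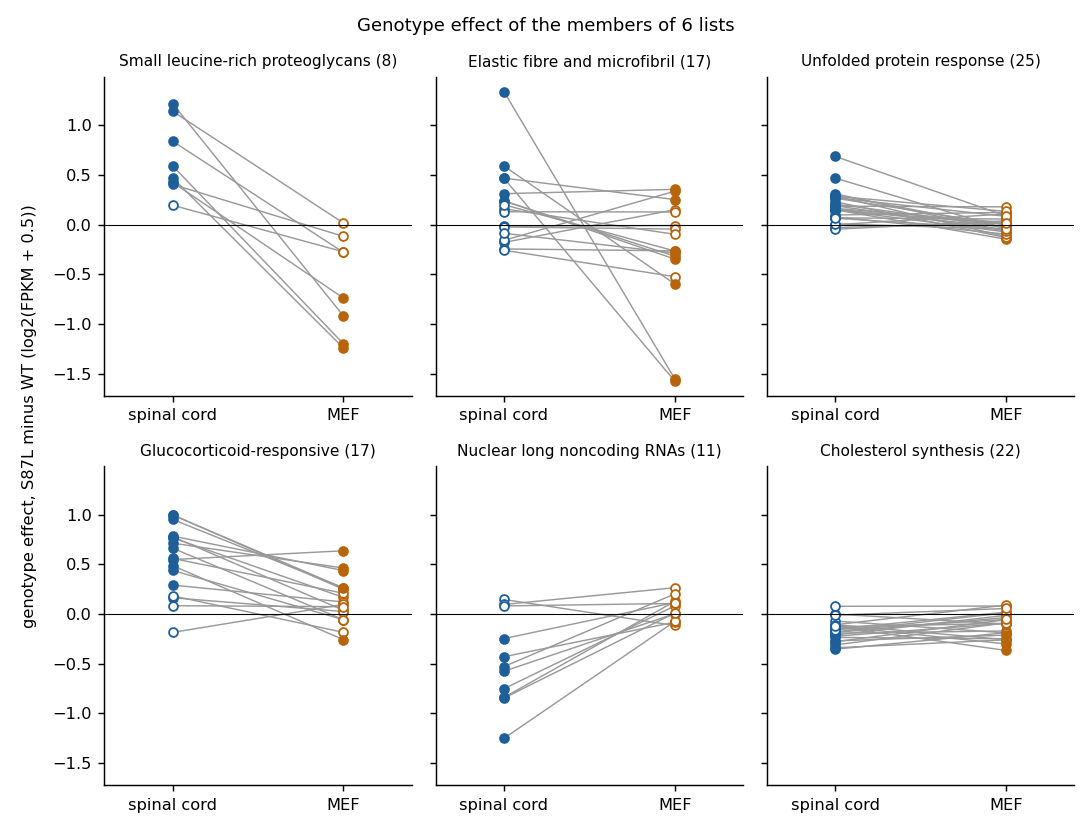
Genotype effect of each tested member of 6 lists in spinal cord (blue) and MEF (orange), joined by a line per gene, on the log2(FPKM + 0.5) scale; filled points passed an adjusted p of 0.05. All 8 proteoglycans lie above 0 in cord and 1 of 8 does in MEF, while 1 of 22 cholesterol genes lies above 0 in cord and 5 do in MEF.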

How the data were processed

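RNA from 11 libraries was measured. The authors deposited 1 table of FPKM per gene. Per the labels' protocols, TRIzol gave total RNA, from which a directional kit made the libraries. The submitters' processing notes name Trimmomatic 0.39, HISAT2 2.2.1, Picard 2.25.5, HTSeq 0.11.3 and the GRCm38 build. The sources used here do not say whether counting used strand, so overlapping and antisense genes may share reads. Of the identifiers, 55227 of 55487 matched the annotation.

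Values were put on the log2(FPKM + 0.5) scale, which understates changes of low genes. A model with 4 group means was fitted over all 11 libraries in limma 3.58.1 (R 4.3.3, trend and robust settings), with Benjamini-Hochberg adjustment over the 12389 genes tested and a threshold of 0.05. The interaction is the MEF contrast minus the cord contrast. FPKM times exon length gave whole reads, within 0.05, for 98.51% to 98.6% of values, and voom was run on these reads as an alternative chosen after seeing the data, as was removal of GC and length trends. Scripts were tested on simulated data.

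Members and lists were chosen with earlier results of these data known. Named genes are Morc2a and, among genes with a mean of at least 1 FPKM in the highest group and without a predicted name or small RNA type, the 6 of each opposite direction with the largest interaction, the 6 of each same-way direction with the largest smaller effect and the 4 of each one-tissue direction with the largest effect. From each list described, at most 4 genes were added, by smallest interaction p. Other list members, the Gm neighbours of Zfp970 and the genes with promoter elements were chosen after their values were seen. Replicate numbers were not used to pair the libraries in the main fit. Same-numbered cord libraries correlated at 0.14, -0.06 and 0.14, and the other cord pairs at -0.21 to 0.1. In MEF the values were -0.06 and -0.03 for the same number and -0.03 to 0.06 for the others. With 2 S87L MEF libraries their deviations mirror each other, so the MEF values cannot decide on pairing. The few cord values neither show nor exclude it. A fit with the replicate number as a block is given below.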

Additional observations from a re-analysis of the deposited data

Results flagged for a closer look

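The test of the difference between tissues was called for 1632 genes and for each gene named here. Among genes higher in S87L cord and lower in S87L MEF, the interaction was -2.89 for Mfap4, -2.56 for Tnnt3, -2.14 for Dcn, -2.04 for Eln, -1.93 for Dpt and -1.90 for Igfbp2. Among genes lower in cord and higher in MEF it was 1.56 for Grem1, 1.1 for Hoxb9, 1.05 for Cd24a, 0.88 for Wsb1, 0.87 for Inhba and 0.83 for Pla2g4a. Acta1, which rose in both tissues, had -1.70. Of genes that rose in cord alone, Ogn had -1.13, Acta2 -1.02, Tagln -0.78 and Fkbp5 -0.74. Of those that fell in cord alone, Hoxc10 had 1.71, Meg3 1.18, Hoxa9 1.16 and Hoxc9 0.87. In MEF alone, the rises of Spp1, Flt4, Mfap3l and Cdk18 gave 0.92, 0.87, 0.80 and 0.76. The falls of Sfrp2, Fabp7, Lgr5 and Cpxm2 gave -1.65, -1.33, -1.11 and -1.26.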

How the results depend on the processing

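No interaction called in the 12389 genes changed sign under any alternative except 3 under quantile normalization. With the replicate number as a block, 960 interactions were called (384 above and 576 below 0), of which 896 were among the 1632, with 1164 calls in cord and 1147 in MEF. Under that block the opposite genes numbered 70 and 20, those higher in cord first, the same-way genes 49 higher and 91 lower, and the genes of 1 tissue 146 in cord and 300 in MEF. The opposite genes lower in cord numbered 39 under median ratio scaling, 29 with each tissue fitted alone, 109 in voom and 104 after GC and length trends were removed. Same-way higher genes numbered 203 under median ratio scaling and 61 with each tissue alone, same-way lower genes 112 with each tissue alone, and cord-alone genes 580 after GC and length removal. The causes were not tested.

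Leaving out 1 library gave 1136 to 1853 interactions (449 to 846 above 0), 1075 to 1982 calls in cord and 1131 to 2236 in MEF. Opposite genes ranged from 72 to 114 and from 30 to 63, same-way genes from 60 to 116 higher and 121 to 161 lower, and genes of 1 tissue from 205 to 370 in cord and 333 to 631 in MEF. The lone S87L MEF library is then assumed to vary like the other groups. With 2 such libraries and 12.08 to 23.53 M reads, small changes of low genes were not detectable.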
